A study of Mus musculus with 8 samples.

Results

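The 8 genes Zscan4c, Zscan4d, Zscan4f, Zfp352, Tcstv1, Tcstv3, Usp17lc and Tdpoz4 mark the 2-cell-like state of mouse embryonic stem cells. They were chosen by name from the 55291 gene symbols in the count tables, not by a threshold on any measured value, but with earlier results of these data known. They were followed in 8 RNA-seq libraries of 2 edited lines, DHX35-dTAG and GPATCH1-dTAG, which bear an FKBP12-derived degron knocked into Dhx35 or Gpatch1. Both lines were labelled E14, although the growth protocol mentions R1 cells, and were kept in serum with LIF, PD0325901 and CHIR99021. Each line was exposed for 4 h to 200 nM dTAG-13, a compound that brings the tagged protein to the degradation machinery, or to DMSO, its solvent, which gave 4 groups of 2 libraries. The DMSO controls thus carry the degron too, and no untagged cells are analysed here. The lines were grown from single colonies picked after puromycin selection, and which clone each library came from is not given in the sources used here. No label says that the replicates were separate cultures, so the tests measure the spread between these libraries, which may be technical.

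A small and changing fraction of mouse embryonic stem cells enters a state whose transcripts resemble those of the 2-cell embryo, in which the embryonic genome is first transcribed. The transcription factor Dux switches on most genes of this programme, the DNA-binding proteins Dppa2 and Dppa4 act upstream of Dux, and chromatin proteins such as Trim28, Setdb1, Kdm1a and the CAF-1 subunits hold the programme down. Inhibition of splicing is known to move embryonic stem cells toward this state. DHX35 is a DEAH-box RNA helicase and GPATCH1 is its G-patch partner, and both belong to spliceosomes that reject aberrant substrates. The comparison therefore asks how the marker genes stood after each of these proteins was depleted.

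The 3 Zscan4 genes encode proteins with a SCAN domain and zinc fingers that act in telomere maintenance and in the 2-cell embryo. They lie in a cluster of near-identical copies on chromosome 7 of GRCm38 (the build that the authors call mm10), with Zscan4c at chr7:11005745-11010547, Zscan4d at chr7:11161374-11166159 and Zscan4f at chr7:11397915-11402318, each with 4 exons. Upstream sequences were taken from RefSeq (GRCm38.p6), where 6 of the 8 genes were matched and Tcstv1 and Tcstv3 were not. The 250 bases before the RefSeq start are shown for the 3 Zscan4 genes, which carry most of the counts, and for Zfp352, a zinc finger gene outside the cluster. The windows are chr7:11005495-11005744 (plus strand), chr7:11166149-11166398 (minus strand), chr7:11397665-11397914 (plus strand) and chr4:90218570-90218819 (plus strand). Capitals mark TATAAA, the core of a TATA box, and TGATTCAA, a part of the motif reported for Dux.
Zscan4c: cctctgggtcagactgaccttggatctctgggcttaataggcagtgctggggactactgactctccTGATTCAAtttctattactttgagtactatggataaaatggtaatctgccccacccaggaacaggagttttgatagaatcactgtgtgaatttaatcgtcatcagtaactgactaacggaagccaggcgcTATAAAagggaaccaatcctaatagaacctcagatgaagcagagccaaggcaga
Zscan4d: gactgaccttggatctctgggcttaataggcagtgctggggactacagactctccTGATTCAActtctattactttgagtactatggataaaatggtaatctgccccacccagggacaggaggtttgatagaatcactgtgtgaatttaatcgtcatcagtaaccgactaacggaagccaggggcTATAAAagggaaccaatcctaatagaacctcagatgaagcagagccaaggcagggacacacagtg
Zscan4f: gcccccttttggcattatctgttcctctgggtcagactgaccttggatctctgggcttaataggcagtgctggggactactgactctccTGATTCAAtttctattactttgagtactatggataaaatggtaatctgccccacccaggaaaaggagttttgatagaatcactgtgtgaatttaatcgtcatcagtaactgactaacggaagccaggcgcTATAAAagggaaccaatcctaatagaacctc
Zfp352: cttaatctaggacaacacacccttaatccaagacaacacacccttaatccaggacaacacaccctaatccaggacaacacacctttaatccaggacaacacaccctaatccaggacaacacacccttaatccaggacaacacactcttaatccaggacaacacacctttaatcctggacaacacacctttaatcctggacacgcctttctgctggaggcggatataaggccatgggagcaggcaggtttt

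The Zscan4 windows were almost the same sequence. Zscan4c and Zscan4f were 99.6% identical over 227 aligned bases, Zscan4c and Zscan4d 97.1% over 239, and Zscan4d and Zscan4f 96.8% over 216. Both motifs were searched on both strands and do not overlap each other. TGATTCAA began at position -184 of Zscan4c, -195 of Zscan4d and -161 of Zscan4f, counted from the RefSeq start, and TATAAA at -54, -65 and -31. Because the RefSeq starts of the copies lie at different places in the shared sequence, these distances differ although the distance between the motifs does not. TGATTCAA was found in 0.539% of 32851 RefSeq promoters of this length, and TATAAA in 12.4%. The window of Usp17lc held TATAAA at -88, and those of Zfp352 and Tdpoz4 held neither sequence. The promoter of Zscan4b, another copy of the cluster, was 94.8% identical to that of Zscan4f over 250 bases and held TATAAA at -31 but not TGATTCAA.

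The other 5 genes are scattered over the genome. Zfp352 lies at chr4:90218820-90225702. Usp17lc, which encodes a deubiquitinating enzyme, lies at chr7:103415072-103419880 and overlaps the small gene Gm25774 on the same strand. Tcstv1 at chr13:119893388-119894785 and Tcstv3 at chr13:120316878-120318178 are paired genes linked to telomere length in embryonic stem cells, and Tdpoz4, which encodes a protein with TRAF and POZ domains, lies at chr3:93796398-93797510 in a family of similar genes.

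Reads of near-identical copies can be split or lost by the counting step, whose program and strand setting are not given in the sources used here. To show how far this concerns each gene, every 150-base window of its longest GENCODE M21 transcript was looked up in all other transcripts. Such windows were shared with other genes in 86.2% of cases for Zscan4f, 61% for Zscan4c and 13% for Zscan4d, mostly with further Zscan4 copies. Usp17lc shared 29.4% of its windows, nearly all with Usp17ld, and Tdpoz4 shared 6.54%. Zfp352, Tcstv1 and Tcstv3 shared none. Over whole transcripts, Zscan4c and Zscan4f were 99.6% identical, Zscan4f and Zscan4-ps2 99.8%, and Zscan4c and Zscan4d 97.5%. The single counts of Zscan4c and Zscan4f are therefore uncertain, while Zscan4d could be told apart over 87% of its windows.

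The libraries held between 12014203 and 14994173 counts, and 1 count corresponded to 0.062 to 0.0884 CPM (counts scaled to the library size with TMM factors). DHX35-dTAG DMSO replicate 1 differed most from the rest, with a mean correlation of 0.9756 with the other libraries, against 0.988 to 0.9897 for the rest, so the values of the 8 genes in that line are given with and without it. The 2 most abundant genes, Gm23935 and CT010467.1, took 1.272% to 20.86% of the counts. In DHX35-dTAG cells their share was 3.153% and 1.539% in DMSO and 11.98% and 20.22% in dTAG-13, so it differed with the treatment. In GPATCH1-dTAG cells it was 4.229% and 20.86% in DMSO and 1.272% and 2.017% in dTAG-13. The part of this share in the values of the 8 genes was not tested. A degron removes protein, so the mRNA of its target does not show the depletion, but Gpatch1 stood at 6.9 to 7.31 CPM in the 4 GPATCH1-dTAG libraries and at 23.2 to 25.6 CPM in the 4 DHX35-dTAG libraries. Its mRNA was thus lower in the DMSO controls of the GPATCH1-dTAG line too. Dhx35 stood at 72.3 to 84.8 CPM in the 4 DHX35-dTAG libraries and at 58.1 to 64.9 CPM in the 4 GPATCH1-dTAG libraries. Pluripotency genes (12 genes such as Pou5f1 and Nanog) summed to 6190 to 6930 CPM. Marker sums for feeder fibroblasts were 13.3 to 17.6 CPM over 10 genes. Pdgfrb (7.76 to 11.6 CPM) and Thy1 (1.33 to 3.62 CPM) were the most abundant of these, and Lum and Postn had 0 counts in every library. Those for primitive endoderm were 6.72 to 10 CPM over 7 genes, and those for germ layers 34.7 to 44.1 CPM over 8 genes. Trophoblast markers summed to 37.3 to 69.6 CPM over 7 genes, with Elf5 at 2 counts in all libraries together.

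The 8 genes were expressed at low levels. Zscan4c, Zscan4d and Zscan4f had 7 to 46 counts in each library, and the other 5 genes had 0 to 11, around the floor of 3 counts. Together the 8 genes received 605 counts over the 8 libraries, of which 501 (82.8%) fell on the 3 Zscan4 genes. Per kilobase of transcript (RPKM, the mean of all 8 libraries), Zscan4d was highest at 1.01 ± 0.271 (SD, n = 8), followed by Zscan4c at 0.599 ± 0.213 and Zscan4f at 0.559 ± 0.206. Usp17lc had 0.207 ± 0.0977 RPKM, Tcstv3 0.158 ± 0.184, Tdpoz4 0.105 ± 0.135, Zfp352 0.099 ± 0.0453 and Tcstv1 0.00864 ± 0.0244. Zscan4d exceeded Zscan4c, and Zscan4f exceeded Usp17lc, in 8 of 8 libraries. The neighbours Zscan4c and Zscan4f did not differ beyond their spread (Zscan4c was higher in 4 of 8), nor did Usp17lc and Tcstv3 (5 of 8), Tcstv3 and Tdpoz4 (5 of 8) or Tdpoz4 and Zfp352 (3 of 8).

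Only Zscan4c, Zscan4d and Zscan4f passed the expression filter of edgeR's quasi-likelihood test, which kept 16371 genes. Zfp352, Tcstv1, Tcstv3, Usp17lc and Tdpoz4 did not, and their values are described without a test in the filtered fit. In bulk RNA, a change in the number of 2-cell-like cells and a change in the RNA per cell cannot be told apart.

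In DHX35-dTAG cells, the Zscan4 genes stood higher in dTAG-13 than in DMSO on average, but none passed the test. Zscan4c had 10 and 23 counts (0.739 and 1.48 CPM) in the DMSO libraries and 20 and 24 counts (1.71 and 2.12 CPM) in the dTAG-13 libraries. Both dTAG-13 libraries lay above both DMSO libraries, and replicate 1 in DMSO was the lowest of all 8. The edgeR log2 fold change was 0.76 (standard error 0.38, 95% interval -0.09 to 1.61, adjusted p = 0.715), and without that replicate it was 0.37 (standard error 0.36, adjusted p = 0.991).

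Zscan4d had 24 and 46 counts (1.77 and 2.96 CPM) in DMSO and 39 and 28 counts (3.33 and 2.48 CPM) in dTAG-13. The groups overlapped, because replicate 2 in DMSO lay above replicate 2 in dTAG-13. The edgeR log2 fold change of 0.28 (standard error 0.32, adjusted p = 0.793) turned to -0.02 (adjusted p = 0.998) without replicate 1 in DMSO. Zscan4d had the most counts of the 8 genes and, among the Zscan4 genes shown, the fewest shared windows.

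For Zscan4f, the DMSO libraries had 9 and 7 counts (0.665 and 0.45 CPM) and the dTAG-13 libraries 13 and 18 counts (1.11 and 1.59 CPM). These groups did not overlap, and here replicate 2 in DMSO was the lowest of all libraries. The edgeR log2 fold change was 1.28 (standard error 0.43, unadjusted p = 0.0157, adjusted p = 0.715) and 1.56 (standard error 0.56, adjusted p = 0.991) without replicate 1 in DMSO. Zscan4f shares most of its sequence with other copies, so this value cannot be assigned to the gene alone.

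Usp17lc had 3 and 5 counts (0.222 and 0.321 CPM) in DMSO and 11 and 5 counts (0.94 and 0.442 CPM) in dTAG-13. The summed counts of 8 and 16 gave a ratio of 2.53 (exact 95% interval 1.02 to 6.83, which like all intervals on counts covers counting error only), and 2.16 (0.758 to 7.55) without replicate 1 in DMSO. Zfp352 had 4 and 5 counts in DMSO and 2 and 3 in dTAG-13, a ratio of 0.702 (0.185 to 2.33), and 0.676 (0.156 to 2.94) without replicate 1. Tdpoz4 had 1 and 1 counts in DMSO and 2 and 5 in dTAG-13, a ratio of 4.43 (0.843 to 43.7), and 4.73 (0.608 to 213) without replicate 1. Tcstv3 had 0 and 1 in DMSO and 1 and 5 in dTAG-13, a ratio of 7.59 (0.92 to 349) that fell to 4.06 (0.492 to 187) without replicate 1. Tcstv1 had no count in this line, where 0 counts allow up to 3 counts, or 0.193 to 0.265 CPM, per library. Apart from Usp17lc with both DMSO libraries, the intervals of these genes include 1 or cannot be given.

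Counted by rank alone, 5 of the 8 genes (Zscan4c, Zscan4f, Tcstv3, Usp17lc and Tdpoz4) had both dTAG-13 libraries above both DMSO libraries in DHX35-dTAG cells, and 1 (Zfp352) had both below. Over the 32642 genes with any count, 12% had both dTAG-13 libraries above and 12.7% had both below. In raw counts the groups met or crossed for 3 of the 5, at 1 against 1 for Tcstv3, 5 against 5 for Usp17lc and 23 in DMSO against 20 in dTAG-13 for Zscan4c, so their order rests on the scaling to library size. Zscan4c and Zscan4f share sequence and are not separate observations. By the test, 0 of the 3 tested genes were called for the DHX35 depletion, as were 0 (0%) of all 16371 genes, with 882 of them at an unadjusted p under 0.05. DESeq2 called 1 gene, which is none of the 8. The 3 tested genes had a median log2 fold change of 0.76, against -0.0077 for all genes tested. Without DHX35-dTAG DMSO replicate 1, the log2 fold changes of these 3 were 0.37 for Zscan4c, -0.02 for Zscan4d and 1.56 for Zscan4f. Usp17lc passed the filter in that fit too. Its highest count, 11, lies in a dTAG-13 library of this line, so no median that includes it is drawn on.

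**Figure D1:**
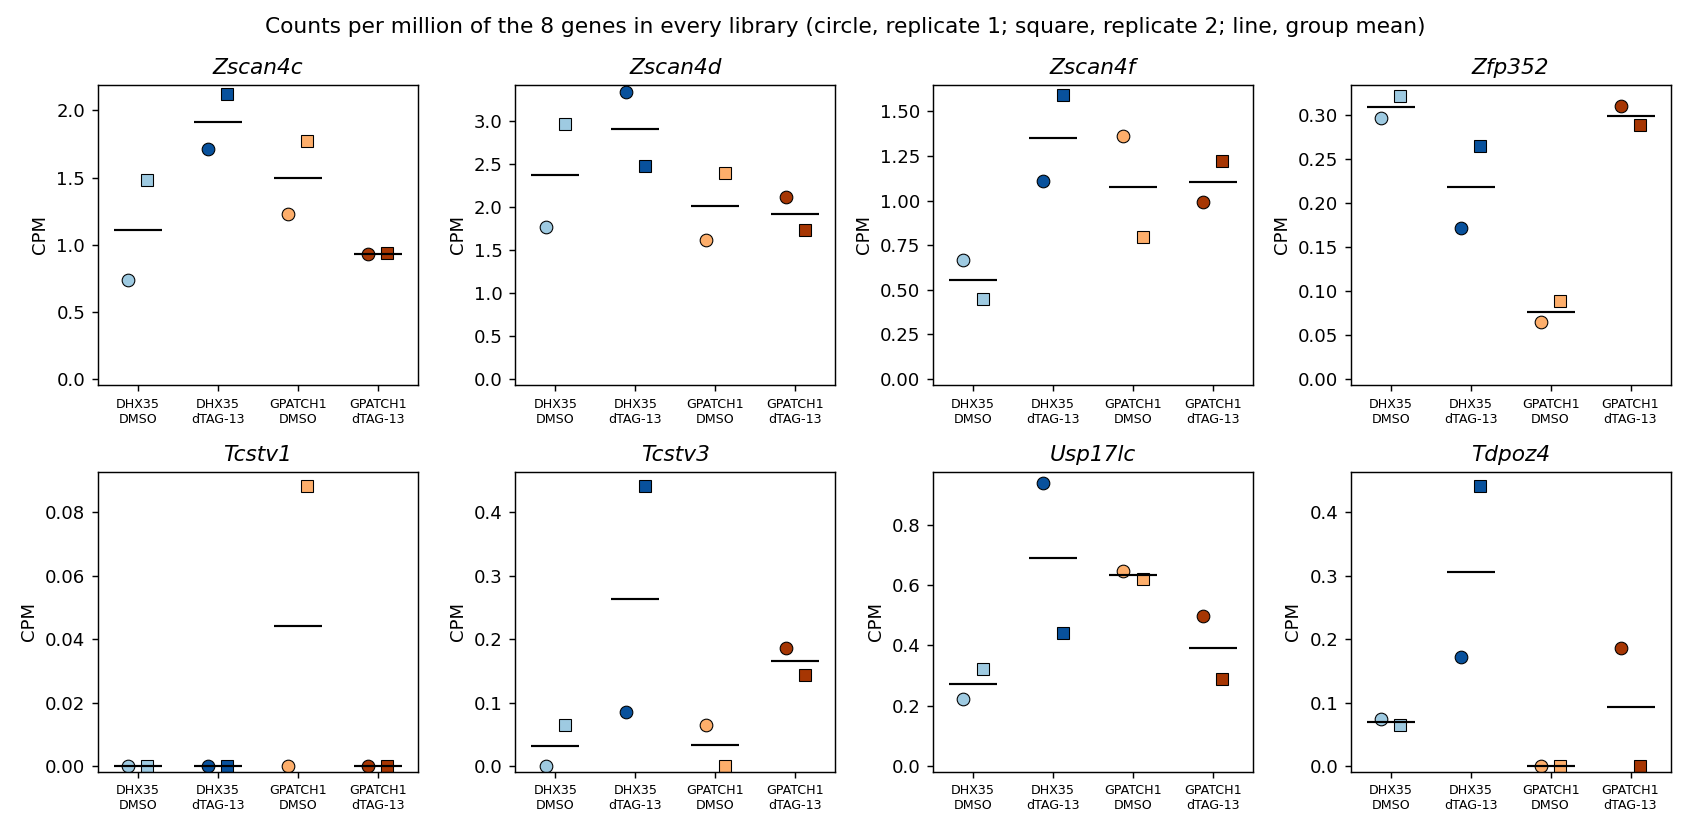
Each panel plots one gene in CPM for the 4 groups on the x axis, with a circle for replicate 1, a square for replicate 2 and a line for the group mean. Both dTAG-13 libraries of DHX35-dTAG cells lie above both DMSO libraries for 5 genes, while Zscan4d overlaps and Tcstv1 has 1 count in all.

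In GPATCH1-dTAG cells, the Zscan4 genes were level or lower in dTAG-13, and again none passed the test. Zscan4c had 19 and 20 counts (1.23 and 1.77 CPM) in DMSO and 15 and 13 counts (0.929 and 0.936 CPM) in dTAG-13. Both dTAG-13 libraries lay below both DMSO libraries. The edgeR log2 fold change of Zscan4c was -0.66 (standard error 0.39, 95% interval -1.55 to 0.24, adjusted p = 1).

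Zscan4d had 25 and 27 counts (1.62 and 2.39 CPM) in DMSO and 34 and 24 counts (2.11 and 1.73 CPM) in dTAG-13, and Zscan4f had 21 and 9 counts (1.36 and 0.796 CPM) in DMSO and 16 and 17 counts (0.991 and 1.22 CPM) in dTAG-13. In both genes the dTAG-13 libraries fell between the DMSO libraries. Their edgeR log2 fold changes were -0.03 (standard error 0.35, adjusted p = 1) and -0.01 (standard error 0.37, adjusted p = 1).

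Usp17lc had 10 and 7 counts (0.647 and 0.619 CPM) in DMSO and 8 and 4 counts (0.496 and 0.288 CPM) in dTAG-13, and the ratio of summed counts was 0.629 (exact interval 0.274 to 1.4). Zfp352 had 1 and 1 counts in DMSO and 5 and 4 in dTAG-13, a ratio of 4.01 (0.83 to 38.2). Tcstv3 had 1 and 0 counts in DMSO and 3 and 2 in dTAG-13, a ratio of 4.46 (0.499 to 211). Tdpoz4 had no count in DMSO and 3 and 0 in dTAG-13, and the single count of Tcstv1 in the whole series fell on replicate 2 in DMSO, so both stayed at or under the floor of 3 counts and have no fold change. Each of the intervals given includes 1.

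Both dTAG-13 libraries lay above both DMSO libraries for 2 of the 8 genes in this line (Zfp352 and Tcstv3) and below for 2 (Zscan4c and Usp17lc). Over the 32642 genes with any count the shares were 15% above and 15.7% below. In raw counts the groups crossed for Usp17lc, at 7 in DMSO against 8 in dTAG-13, so its order rests on the scaling to library size. The groups of both lines were separated, in opposite directions, for 3 of the 8 genes (Zscan4c, Zfp352 and Usp17lc) and for 4.5% of all genes with any count. For the GPATCH1 depletion, 0 of the 3 tested genes and 0 (0%) of 16371 genes were called by edgeR, with 486 genes at an unadjusted p under 0.05. DESeq2 likewise called 0. The median log2 fold change of the 3 genes was -0.031, against 0.0029 for all genes tested. Without DHX35-dTAG DMSO replicate 1, when Usp17lc passed the filter too, the median was -0.33 over 4 genes. The highest count of Usp17lc lies in a dTAG-13 library of the other line, so this median is not drawn on.

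The counts of the 8 genes were also added up. The sum was 51 and 88 counts (3.77 and 5.66 CPM) in the DMSO libraries of DHX35-dTAG cells and 88 and 88 counts (7.52 and 7.78 CPM) in dTAG-13. In GPATCH1-dTAG cells it was 77 and 65 counts (4.98 and 5.75 CPM) in DMSO and 84 and 64 counts (5.2 and 4.61 CPM) in dTAG-13. In CPM the groups did not overlap in DHX35-dTAG cells, where the raw counts met at 88, and they overlapped in GPATCH1-dTAG cells. The log2 ratio of the group means was 0.70 in DHX35-dTAG cells, 0.44 there without replicate 1 in DMSO, and -0.13 in GPATCH1-dTAG cells. On total counts or as a mean of log2 values it was smaller in DHX35-dTAG cells and changed sign in GPATCH1-dTAG cells, with the values given in the last section. Ratios of summed counts were 1.6 (exact interval 1.27 to 2.01) in DHX35-dTAG cells, 1.35 (1.04 to 1.77) without replicate 1 in DMSO, and 0.929 (0.733 to 1.18) in GPATCH1-dTAG cells. Leaving out replicate 2 in DMSO instead moved the log2 ratio of DHX35-dTAG cells to 1.02, the highest value over the libraries left out.

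Since reads of the Zscan4 copies cannot be assigned with certainty, all 9 copies in the tables (Zscan4a to Zscan4f and the 3 genes named Zscan4-ps1 to Zscan4-ps3) were also added up, a choice made after seeing the data. The copies received 1081 counts, of which the 3 genes above hold 46.3%. In DHX35-dTAG cells the sum was 84 and 168 counts (6.21 and 10.8 CPM) in DMSO and 153 and 151 counts (13.1 and 13.4 CPM) in dTAG-13. In GPATCH1-dTAG cells it was 156 and 125 counts (10.1 and 11.1 CPM) in DMSO and 135 and 109 counts (8.37 and 7.85 CPM) in dTAG-13. In CPM both dTAG-13 libraries thus lay above both DMSO libraries in DHX35-dTAG cells and below both in GPATCH1-dTAG cells. In raw counts the groups crossed in both lines, at 168 in DMSO against 153 and 151 in dTAG-13 and at 125 in DMSO against 135 in dTAG-13. Their order therefore rests on the scaling to library size. DHX35-dTAG DMSO replicate 1 had the lowest sum of all.

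Fitted as 1 gene in edgeR, the 9 copies stood 0.63 higher on the log2 scale (standard error 0.22, unadjusted p = 0.0204, adjusted p = 0.715) after DHX35 depletion. After GPATCH1 depletion it was -0.38 (standard error 0.23, adjusted p = 1). Neither passed the threshold. The DHX35 value depended on which DMSO library was kept, being 0.29 without replicate 1 and 1.1 without replicate 2. In both fits 1 DMSO library of this line is left, and the spread is taken from the other groups. Without replicate 2 edgeR called 4949 genes (28.8%) for the DHX35 depletion, Zscan4c among them (log2 fold change 1.37, adjusted p = 0.0282), in a fit where the least typical library was the only DMSO control of this line.

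**Figure D2:**
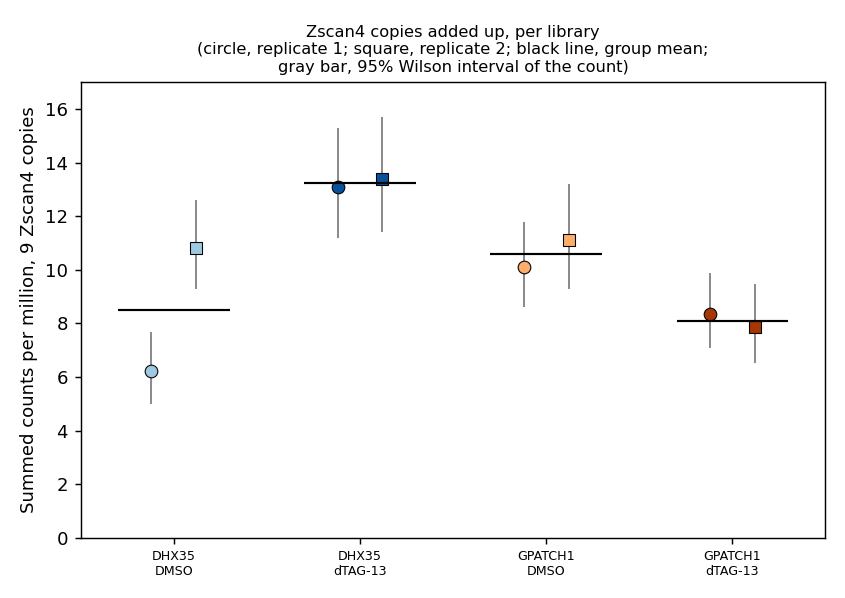
The y axis gives the summed CPM of the 9 Zscan4 copies in each library, grouped by line and treatment on the x axis, with circles for replicate 1, squares for replicate 2, black lines for group means and gray bars for the 95% Wilson interval of the count. The dTAG-13 libraries lie at 13.1 and 13.4 CPM in DHX35-dTAG cells and at 8.37 and 7.85 CPM in GPATCH1-dTAG cells, and the lowest point is DHX35-dTAG DMSO replicate 1 at 6.21 CPM.

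How far the responses of both lines differed was tested as an interaction (GPATCH1 response minus DHX35 response). It was -1.42 on the log2 scale for Zscan4c (standard error 0.54, unadjusted p = 0.0288, adjusted p = 0.862 by edgeR), -0.32 for Zscan4d (standard error 0.47, adjusted p = 0.898) and -1.28 for Zscan4f (standard error 0.58, adjusted p = 0.862). For the 9 copies added up it was -1 (standard error 0.32, unadjusted p = 0.0114, adjusted p = 0.862), and -0.66 (adjusted p = 0.513) without DHX35-dTAG DMSO replicate 1. For Zscan4d the difference turned to 0.01 (adjusted p = 1) without that library. By edgeR, 0 of the 3 tested genes and 0 (0%) of all 16371 genes passed the threshold for this difference, with 640 genes at an unadjusted p under 0.05. DESeq2 called 9 genes, with none of the 8 among them. Without DHX35-dTAG DMSO replicate 2, Zscan4c was called by edgeR at -2.01 (adjusted p = 0.0168), and so was the sum of the copies at -1.47 (adjusted p = 7.96e-05), beside 20.9% of all genes.

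**Figure D3:**
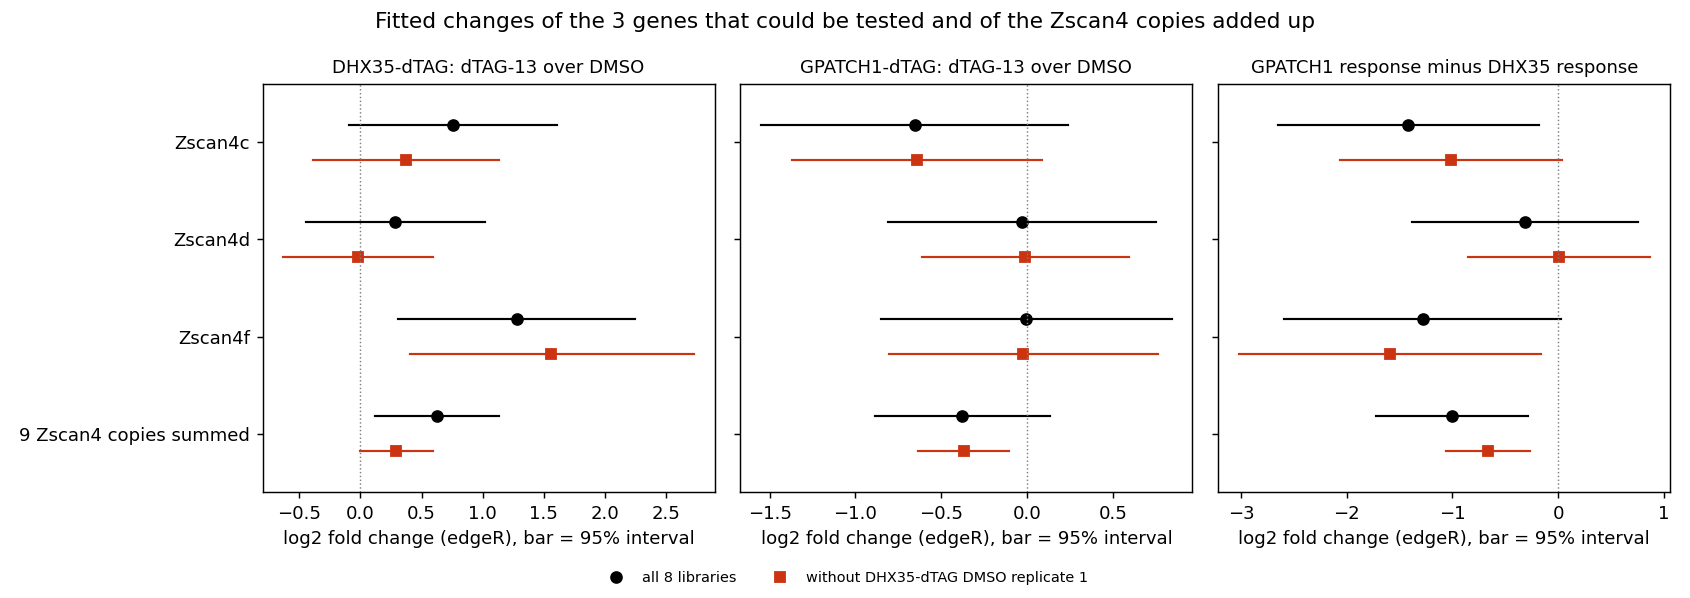
Points are edgeR log2 fold changes with 95% intervals for Zscan4c, Zscan4d, Zscan4f and the 9 Zscan4 copies added up, in black for all 8 libraries and in red without DHX35-dTAG DMSO replicate 1. The left and middle panels show dTAG-13 over DMSO in each line and the right panel the difference between them. In DHX35-dTAG cells Zscan4d moves from 0.28 to -0.02 when that library is left out, whereas Zscan4f moves from 1.28 to 1.56.

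Between the lines, irrespective of treatment, none of the 3 Zscan4 genes was called. The edgeR log2 difference (GPATCH1-dTAG minus DHX35-dTAG) was -0.32 for Zscan4c (standard error 0.27, adjusted p = 0.595), -0.43 for Zscan4d (standard error 0.24, adjusted p = 0.414) and 0.35 for Zscan4f (standard error 0.29, adjusted p = 0.583). Without DHX35-dTAG DMSO replicate 1 these values were -0.52 (adjusted p = 0.268), -0.60 (adjusted p = 0.107) and 0.50 (adjusted p = 0.457). Of all genes tested, 109 (0.666%) were called between the lines, and 0 of the 3 were among them. For the sum of the 9 copies the log2 difference was -0.20 (standard error 0.16, adjusted p = 0.569). It became -0.37 without DHX35-dTAG DMSO replicate 1 and 0.03 without replicate 2, fits in which that group holds 1 library. The summed level of the trophoblast markers moved with the line, at 37.3 to 54.6 CPM in the 4 DHX35-dTAG libraries and 65.1 to 69.6 CPM in the 4 GPATCH1-dTAG libraries, and edgeR called Gata3 (1.04, adjusted p = 0.0319) and Krt18 (0.91, adjusted p = 0.0478) between the lines. Of the 5 markers tested 4 were higher and 1 (Ascl2, -0.09) lower in GPATCH1-dTAG, and the keratin gene Krt8, at 18.5 to 27.3 CPM in DHX35-dTAG and 34.1 to 37.2 CPM in GPATCH1-dTAG libraries, had the highest level of the list (0.62, adjusted p = 0.0661). Of the 12 pluripotency genes edgeR called Utf1, at 218 to 289 CPM in DHX35-dTAG and 179 to 185 CPM in GPATCH1-dTAG libraries (log2 difference -0.48, adjusted p = 0.0493). Gata3, Krt18 and Utf1 are named because they were called, and Krt8 and Ascl2 for their place in the list, all after their values were seen. Each of the 3 calls ended when any library other than the DHX35-dTAG DMSO pair was left out, with adjusted p values of 0.109 to 0.314. The call on Utf1 also ended with DESeq2 size factors (adjusted p = 0.0534), without the 2 most abundant genes (0.0504) and, as that on Krt18, with at least 10 counts in every library (0.0594 for both). The part of these markers in the values of the 8 genes was not tested.

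Relatives of the 8 genes were described next, from a list of 19 of which 15 are in the tables. Only Zscan4a, Zscan4e, Zscan4-ps2 and Zscan4-ps3 passed the filter, and in the filtered fit of all 8 libraries edgeR called 0 of these 4 in any of the comparisons. Zscan4a, the most abundant relative, had 15 and 23 counts in the DMSO libraries of DHX35-dTAG cells and 24 and 28 counts in the dTAG-13 libraries, a log2 fold change of 0.79 (standard error 0.33, adjusted p = 0.715) and of 0.61 (adjusted p = 0.991) without replicate 1 in DMSO. Zscan4e had 2 and 15 counts in DMSO and 18 and 17 in dTAG-13, a log2 fold change of 1.38 (standard error 0.56, adjusted p = 0.715) that fell to 0.65 (adjusted p = 0.991) without replicate 1 in DMSO. Without replicate 2 in DMSO edgeR called Zscan4e, at 3.29 (adjusted p = 0.00134) for the DHX35 depletion and -3.62 (adjusted p = 0.00356) for the difference between the responses, where 28.8% and 20.9% of all genes were called. Zscan4-ps3 had 7 and 20 counts in DMSO and 16 and 9 in dTAG-13 (0.24, standard error 0.47, adjusted p = 0.884), which turned to -0.24 (adjusted p = 0.991) without replicate 1 in DMSO. Zscan4b had 2 and 12 counts in DMSO and 4 and 3 in dTAG-13 and did not pass the filter. Zscan4b and Zscan4e, which share 68.4% and 77.4% of their windows with other genes, mostly with each other, were both at 2 counts in replicate 1.

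Among relatives outside the cluster, Usp17ld, which shares windows with Usp17lc, had 1 and 3 counts in the DMSO libraries of DHX35-dTAG cells and 5 and 3 in the dTAG-13 libraries, and 0, 0, 2 and 0 in the GPATCH1-dTAG libraries. Usp17le, the most abundant gene of that family, had 9 and 11 counts (0.665 and 0.707 CPM) in DMSO and 5 and 8 counts (0.427 and 0.708 CPM) in dTAG-13 in DHX35-dTAG cells, where the groups overlapped. Tdpoz1, Tdpoz2 and Tdpoz5 had 0 counts in every library.

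Of 34 further genes of the 2-cell programme, 31 are in the tables, 4 of them at 0 counts everywhere, and 7 were tested. Their summed level was 24.9 and 25.6 CPM in the DMSO libraries of DHX35-dTAG cells and 22.8 to 23.5 CPM in dTAG-13, so both dTAG-13 libraries lay below both DMSO libraries. In GPATCH1-dTAG cells it was 17.3 to 18.7 CPM in DMSO and 17.4 to 17.6 CPM in dTAG-13. The median log2 fold change of the 7 tested genes was -0.15 after DHX35 depletion (2 higher, 5 lower) and -0.077 after GPATCH1 depletion (3 higher, 4 lower), and edgeR called 0 of 7 in each. When DHX35-dTAG DMSO replicate 1 was left out, 9 genes of the list were tested, and their median after DHX35 depletion turned to 0.0095 (5 higher, 4 lower). Gm5662 of this list, picked after its values were seen, had 0.739 and 2.51 CPM in DMSO and 2.65 and 2.39 CPM in dTAG-13 of DHX35-dTAG cells. Its log2 fold change was 1.77 when replicate 2 in DMSO was left out. Ddit4l, a stress-induced inhibitor of mTOR signalling and the most abundant gene of the list, had 10.1 and 10.2 CPM in DMSO and 8.29 and 8.76 CPM in dTAG-13 of DHX35-dTAG cells, a log2 fold change of -0.25 (standard error 0.13, adjusted p = 0.715). Gm21761, the next in abundance, had 4.51 and 3.21 CPM in DMSO and 3.76 and 2.74 CPM in dTAG-13 (log2 fold change -0.24, standard error 0.27, adjusted p = 0.794), which turned to 0.02 (adjusted p = 0.998) without replicate 1 in DMSO.

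All 7 of these genes were lower in GPATCH1-dTAG than in DHX35-dTAG cells, with a median log2 difference of -0.59 against -0.0087 for all genes, but 0 of 7 passed the threshold in the filtered fit of all 8 libraries. When DHX35-dTAG DMSO replicate 1 was left out, 9 of 9 tested genes were lower, with a median of -0.47. For Gm21761 the edgeR log2 difference was -0.81 (standard error 0.2, adjusted p = 0.144), and without DHX35-dTAG DMSO replicate 2 it was called at -0.91 (adjusted p = 0.00149), in a fit that called 30% of all genes between the lines. Gm5662 stood at -0.94 on this scale (standard error 0.35, adjusted p = 0.271), which became -1.24 without DHX35-dTAG DMSO replicate 1. It is named here after its values were seen.

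Of 7 listed symbols for upstream activators, 6 are in the tables and 5 were tested, and in the filtered fit of all 8 libraries edgeR called 0 of 5 in each comparison. Without the filter it called Dppa2 for the DHX35 depletion (0.50, adjusted p = 0.00521), beside 1.06% of all 32642 genes. Duxf3, the symbol under which the tables list Dux, had 5 counts in all, at most 1 in any library. Dppa2 had 606 and 1434 counts (44.8 and 92.2 CPM) in the DMSO libraries of DHX35-dTAG cells and 1115 and 1113 counts (95.3 and 98.4 CPM) in the dTAG-13 libraries. Its low value in replicate 1 in DMSO stands outside the 76.6 to 98.4 CPM of the other 7 libraries. The edgeR log2 fold change of 0.50 (standard error 0.26, adjusted p = 0.715) fell to 0.07 (standard error 0.09, adjusted p = 0.991) without that library. Without replicate 2 in DMSO it was 1.12 (adjusted p = 1.13e-07), the difference between the responses was -1.2 (adjusted p = 1.78e-06), and edgeR called 3 of 5 activators in each, with Nelfa (0.43, adjusted p = 0.000826) and Tbx3 (0.33, adjusted p = 0.00173) beside Dppa2 for the DHX35 depletion. That fit called 28.8% of all 17175 genes tested for the DHX35 depletion and 20.9% for the difference. Dppa4 had 79.4 and 75.1 CPM in DMSO and 65.8 and 72.7 CPM in dTAG-13, a log2 fold change of -0.16 (standard error 0.09, adjusted p = 0.715), or -0.12 (adjusted p = 0.991) without replicate 1 in DMSO. After GPATCH1 depletion, Dppa2 had -0.08 (standard error 0.26) and Dppa4 0.05 (standard error 0.09), both with an adjusted p of 1. The most abundant activators, the pluripotency factor Tbx3 at 403 to 519 CPM and the p53 gene Trp53 at 294 to 349 CPM, complete the tested genes that the naming rule selects.

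The 21 repressors were all tested, and in the filtered fit of all 8 libraries edgeR called 0 of 21 in each comparison. Without the filter it called Sumo2, at 0.50 (adjusted p = 0.00449) for the DHX35 depletion and -0.64 (adjusted p = 0.0296) for the difference between the responses. That fit called 1.06% and 0.429% of all 32642 genes in these comparisons. Their median log2 fold change was 0.024 after DHX35 depletion (11 higher, 10 lower) and 0.027 after GPATCH1 depletion (14 higher, 7 lower), against -0.0077 and 0.0029 for all genes. Trim28, a co-repressor recruited by zinc finger proteins, had 3450 CPM in DHX35-dTAG DMSO replicate 1 and 2280 to 2560 CPM elsewhere, and its log2 fold change after DHX35 depletion was -0.24 (standard error 0.15, adjusted p = 0.716). It turned to 0.06 (standard error 0.06, adjusted p = 0.991) without that library and was -0.48 (adjusted p = 9.65e-06) without replicate 2 in DMSO, where edgeR called 13 of 21 repressors, 8 higher and 5 lower, beside 28.8% of all genes. Ncl, which encodes nucleolin, stood at 1720 to 2100 CPM with a log2 fold change of -0.05 (standard error 0.11, adjusted p = 0.893), which turned to 0.08 (adjusted p = 0.991) without that library. DHX35-dTAG DMSO replicate 1, in which the Zscan4 sum was lowest, was the lowest library for 10 and the highest for 8 of the 21 repressors. Among the 5 tested activators it was the lowest for 4 and the highest for Dppa4. The part of this library's make-up in the values of the 8 genes was not tested.

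The genes whose pattern over the 8 libraries came closest to the sum of the 8 genes were sought among 15554 other genes with a mean of at least 10 counts, by the root mean square difference of centred log2 CPM. The nearest were Gcnt4 (0.0792), Pclo (0.0976), Gm2559 (0.106), Tlr5 (0.11), Hydin (0.129), Clca3b (0.135), Gm14411 (0.137) and Sall1 (0.141), where the profile of the 8 genes itself has a root mean square of 0.318. None of them is in the lists used here. Sall1, a zinc finger transcription factor gene of pluripotent cells and by far the most abundant of them, had 127 and 191 CPM in the DMSO libraries of DHX35-dTAG cells and 209 and 216 CPM in dTAG-13. In GPATCH1-dTAG cells it had 167 and 171 CPM in DMSO and 164 and 175 CPM in dTAG-13. Gcnt4 had 0.813 and 1.16 CPM in DMSO and 1.71 and 1.59 CPM in dTAG-13 of DHX35-dTAG cells. All 8 of these genes have their lowest value in DHX35-dTAG DMSO replicate 1. Among the Zscan4 relatives, Zscan4a came nearest, at rank 83 with 0.189. These are descriptions over the same 8 libraries, DHX35-dTAG DMSO replicate 1 included, and they carry no test.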

How the data were processed

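Total RNA with human DLD-1 spike-in RNA was depleted of ribosomal RNA, made into stranded libraries and sequenced as read pairs. The authors trimmed reads with Trim Galore 0.6.6, aligned them with STAR 2.7.5c to mm10 and hg19, and deposited 1 table of raw counts for each library. The labels also list DESeq2 1.26.0, whose use is not described. How reads were assigned to genes (program, annotation, strand) is not given in the sources used here. Spike-in reads and splice junctions were not used here.

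From the deposited counts, CPM were computed on TMM library sizes and differences tested with the quasi-likelihood test of edgeR 4.0.16 (R 4.3.3, filterByExpr, 1 term per group, all 8 libraries in 1 fit, Benjamini-Hochberg adjusted over all genes tested, threshold 0.05). The fitted variation within groups beyond counting error was 11.2%, pooled over all genes tested (square root of the common dispersion, 0.0125). Counting error comes on top of it, and is large at the counts of the 8 genes. The steps were tested on simulated data. Total counts of 12014203 to 14994173 set a floor of 3 counts, or 0.186 to 0.265 CPM. Intervals on counts cover counting error only.

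The members and gene lists were chosen with earlier results of these data known. Named were the 8 genes, genes with an adjusted p under 0.05 among relatives, other 2-cell genes, activators and repressors, Duxf3, Dppa2, Dppa4, Zscan4a, Zscan4b, Zscan4e, the 2 most abundant genes of each list and the 8 genes of most similar profile. Any further gene was picked after its values were seen. Alternatives were DESeq2 1.42.0, other scalings, other filters, a replicate block, the compared libraries alone and each library left out. A fit with a library left out has 1 library in that group, so the spread comes from the other groups. Adding up the Zscan4 copies was chosen after seeing the data. The replicates were not duplicates of each other.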

Additional observations from a re-analysis of the deposited data

Results flagged for a closer look

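For Zscan4c, Zfp352, Usp17lc and the sum of the 9 Zscan4 copies, the groups were separated in CPM in opposite directions in the DHX35-dTAG and GPATCH1-dTAG lines. In raw counts the groups met or crossed for Zscan4c in the DHX35-dTAG line and for Usp17lc and the sum in both lines. There the order rests on the scaling to library size. The 3 genes stand among 1470 of 32642 genes with any count (4.5%) that were separated in opposite directions in the lines. The log2 ratio of mean CPM (dTAG-13 over DMSO) of Zscan4c was 0.79 in the DHX35-dTAG and -0.68 in the GPATCH1-dTAG line, and the interaction had an edgeR unadjusted p of 0.0288 and an adjusted p of 0.862. Its edgeR log2 fold change after DHX35 depletion fell from 0.76 to 0.37 without DHX35-dTAG DMSO replicate 1. For the sum of the 9 Zscan4 copies these ratios were 0.64 and -0.38, with an interaction p of 0.0114 unadjusted and 0.862 adjusted in edgeR. Without that library the fitted DHX35 value of the sum fell from 0.63 to 0.29 and the interaction moved from -1 to -0.66 (adjusted p = 0.513). Without DHX35-dTAG DMSO replicate 2 edgeR called the interaction, at -1.47 for the sum (adjusted p = 7.96e-05) and -2.01 for Zscan4c (adjusted p = 0.0168), beside 20.9% of all genes. Usp17lc had 1.35 and -0.69, and Zfp352 had -0.50 and 1.97. These genes did not pass the expression filter, and in the edgeR fit without it their interaction had adjusted p values of 0.713 for Usp17lc and 1 for Zfp352. Zfp352 rests on 1 to 5 counts per library and Usp17lc on 3 to 11. With 2 libraries in a group, no value could be tested for lying apart from the rest of its own group. DHX35-dTAG DMSO replicate 1 was singled out over all 8 libraries, by its mean correlation of 0.9756 with the others.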

How the results depend on the processing

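Whether the replicate numbers pair the samples cannot be told from these values. Deviations of same-numbered libraries correlated at 0.0372 to 0.23, and not every pair exceeded 0.1, so the main fit used no replicate block. With the replicate block, edgeR called 2 genes for the difference between the responses instead of 0, and the block changed no other count by more than 1.5 times and no call on the 8 genes. Without an expression filter the calls were 345 (DHX35 depletion), 21 (GPATCH1 depletion), 140 (difference between the responses) and 890 (line difference), against 0, 0, 0 and 109. They make up 1.06%, 0.0643%, 0.429% and 2.73% of 32642 genes. That fit called Dppa2 (log2 fold change 0.50, adjusted p = 0.00521), the repressor Sumo2 (0.50, adjusted p = 0.00449) and the pluripotency gene Dppa5a (-0.52, adjusted p = 4.7e-05) for the DHX35 depletion, Sumo2 (-0.64, adjusted p = 0.0296) and Dppa5a (0.69, adjusted p = 0.000558) for the difference, and Gm5662 (adjusted p = 0.0184) and Gm21761 (adjusted p = 0.00849) between the lines. DESeq2 called 1 gene for the DHX35 depletion and 9 for the difference. The compared libraries alone gave 1 call for the DHX35 depletion and 127 for the GPATCH1 depletion. Over the libraries left out, counts ranged from 0 to 4949 (DHX35 depletion), 0 to 51 (GPATCH1 depletion), 0 to 3592 (difference) and 16 to 5149 (line difference), the highest without DHX35-dTAG DMSO replicate 2, except that 51 was also reached without replicate 1. Without DHX35-dTAG DMSO replicate 2 the calls for the DHX35 depletion held 1 relative (Zscan4e), 1 other 2-cell gene, 3 activators and 13 repressors. Calls on the 8 genes ranged from 0 to 1 for the DHX35 depletion and for the difference. The cause of these shifts was not tested.

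Fold changes near 0 changed sign. That of Zscan4d ranged over the libraries left out from -0.0207 to 0.72 (DHX35 depletion), -0.31 to 0.24 (GPATCH1 depletion) and -0.73 to 0.00944 (difference), and that of Zscan4f from -0.30 to 0.47 (GPATCH1 depletion). Zscan4f after GPATCH1 depletion was 0.0235 by DESeq2 and 0.00555 without a filter. The sum of the 9 copies between the lines ranged from -0.37 to 0.0341. The log2 ratio of the summed 8 genes in DHX35-dTAG cells, 0.70, was 0.46 on total counts, 0.39 as a mean of log2 values, and 0.44 to 1.02 over the libraries left out, the lowest without DMSO replicate 1. That of GPATCH1-dTAG cells, -0.13, turned to 0.05 on total counts and 0.01 as a mean of log2 values, and was -0.23 to -0.02 over the libraries left out. Zfp352, Tcstv1, Tcstv3, Usp17lc and Tdpoz4 had 11 counts at most in any library.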
